A study of Homo sapiens with 4 samples.

Results

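This account covers 9 genes of cell division: the mitotic kinase genes AURKA, AURKB, PLK1, PLK4, NEK2, MASTL, PBK and MELK, and TPX2, whose product activates Aurora A. They were chosen by name, with earlier results of these data known. The rows of the count table whose Ensembl IDs map to these symbols were taken. All 9 were found among the 20263 genes of the table, and all 9 had enough counts to be tested. The cells were MDA-MB-231, an established human line from a triple-negative breast cancer. They had grown for 24 h with Rib_CA, which the series title calls a derivative of ribociclib, or with the solvent DMSO. Ribociclib is an inhibitor of CDK4 and CDK6, the kinases that let cells enter the cell cycle. Each group had 2 libraries, called DMSO 1 and 2 and Rib_CA 1 and 2. The dose was not in the labels. Nor do they state if each replicate was its own culture, and a p-value here thus weighs the spread of these libraries alone, which may be technical.

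In the GENCODE 29 annotation (GRCh38) all are protein-coding. TPX2 lies at chr20:31739271-31801805 on the plus strand and AURKA on the same chromosome at chr20:56369389-56392337 on the minus strand. PLK4 lies at chr4:127880861-127899195 (plus), PLK1 at chr16:23677656-23690367 (plus), MASTL at chr10:27154824-27186924 (plus) and MELK at chr9:36572862-36677683 (plus). NEK2 lies at chr1:211658657-211675630 (minus) and AURKB at chr17:8204733-8210600 (minus).

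Mitotic kinases drive the cell through division by phosphorylating centrosome, spindle and chromosome proteins. Aurora A and PLK1 act at centrosomes and spindle poles, Aurora B on chromosomes and the central spindle, PLK4 in centriole duplication, NEK2 in centrosome separation and MASTL (Greatwall) against the phosphatase PP2A-B55. In cycling cells the transcripts of many such genes rise towards G2 and mitosis and are held low in resting cells, in part through promoter elements named CHR and CCAAT boxes.

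Promoter windows from RefSeq (GRCh38.p14, 250 bases before to 50 after the start) were matched for 6 of the 9 genes, all but AURKA, TPX2 and PBK. The CHR word TTTGAA or its variant TTCGAA occurred on either strand in 3 of the 6, against 13.5% of 15272 windows of genes in the table. The word CCAAT occurred on either strand in 3 of the 6, against 36.6% of all windows. The PLK1 window held both, TTTGAA at -29 and CCAAT at -73 from the start, and NEK2 held 2 CCAAT words, at -66 and -34. AURKB held CCAAT on the opposite strand at -153, PLK4 held TTTGAA on the opposite strand at 39, MASTL held TTTGAA at 3 and, on the opposite strand, at -248, and MELK held none of these words. A match is a description of letters and not evidence of a bound factor. The 120 bases before the RefSeq start of PLK1 (chr16:23678769-23678888, plus strand) and of NEK2 (chr1:211675622-211675741, minus strand) are shown. Of the 6 such stretches, only these held the words. They are written 5′ to 3′ on the strand of the gene, and capitals mark the words:

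PLK1: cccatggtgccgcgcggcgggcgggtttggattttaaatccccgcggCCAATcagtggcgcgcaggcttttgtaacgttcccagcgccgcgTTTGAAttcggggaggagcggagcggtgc

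NEK2: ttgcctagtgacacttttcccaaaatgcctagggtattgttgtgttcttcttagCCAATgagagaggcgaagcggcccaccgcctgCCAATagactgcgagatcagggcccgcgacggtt

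The libraries held 34774542 to 38865103 counts. The share of counts on mitochondrially encoded genes was 8.68% and 21.7% in DMSO 1 and 2 and 5.78% and 3.13% in Rib_CA 1 and 2. With the mitochondrially encoded genes left out of the fit, the log2 fold change was -1.91 for PLK4 and -1.5 for TPX2, both still passed, and NEK2 passed too at -1.4. Levels of the line's markers fitted the label in part. CPM are counts per 1000000, with library totals scaled by TMM. Of markers listed as high, VIM lay at 3590 to 4220, CD44 at 390 to 578 and EGFR at 684 to 1070 CPM. Of those listed as low, ESR1 and PGR stayed below 2 CPM and CDH1 at or near 0. EPCAM, also listed as low, lay at 9.5 to 12.2 CPM. ERBB2 was listed as low too, but lay at 58.0 to 87.1 CPM. Of 4 markers of other cell types, PTPRC and PECAM1 lay at 0.0465 to 1.18 CPM and ACTA2 at 2.02 to 4.72. The macrophage marker CD68 was not low, at 161 to 338 CPM. In bulk RNA, fewer cells of a type and less RNA per cell cannot be told apart, so a lower value can stand for fewer dividing cells or for less transcript in each.

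Rib_CA was compared with DMSO to find which of these transcripts differed after treatment. The PLK4 and TPX2 transcripts fell, PLK4 by a fitted 3.83-fold and TPX2 by 2.87-fold. No gene of the 9 rose, and all 9 fold changes were below 0 on the log2 scale, with a median of -0.94 against 0.03 over all 13667 genes tested. By edgeR's quasi-likelihood test at an adjusted p under 0.05, 2 of the 9 were lower (PLK4 and TPX2), where 5.11% of all genes were lower, and 0 of the 9 were higher, where 2.01% of all genes were. At an unadjusted p under 0.05, 5 of the 9 were lower, against 14.7% of all genes. DESeq2 called 5 lower (AURKA, PLK4, NEK2, MASTL and TPX2) and 0 higher, against 11.8% lower among all genes it tested. Both Rib_CA libraries lay below both DMSO libraries for 7 of the 9, all but AURKB and MELK, against 28.4% of all genes.

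**Figure D1:**
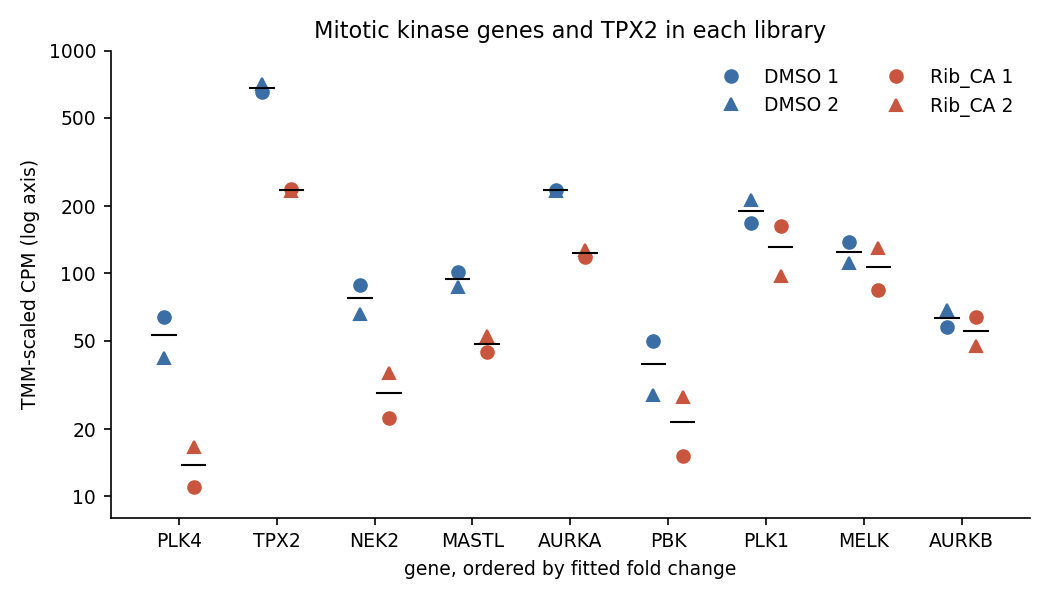
TMM-scaled CPM (log axis) of the 9 genes in each library, with DMSO and Rib_CA side by side, points for libraries and bars for the group means. TPX2 lies highest in both groups at 656 and 706 against 239 and 234 CPM, and the groups overlap for AURKB and MELK.

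TPX2, the spindle protein that binds Aurora A and holds it active, was the most abundant of the 9 and differed least between replicates within Rib_CA. It stood at 656 and 706 CPM in DMSO 1 and 2 and at 239 and 234 CPM in Rib_CA 1 and 2. Every Rib_CA library was thus far below every DMSO library. The log2 fold change of TPX2 was -1.52 ± 0.26 (SE; adjusted p = 0.0296). AURKA, the gene of Aurora A itself, lay at 237 and 235 CPM in DMSO and at 118 and 128 in Rib_CA. The replicates of AURKA were close in both groups and the groups stood apart, with a log2 fold change of -0.94 ± 0.25 that did not pass (adjusted p = 0.0695).

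PLK4, which starts the building of a new centriole, had the largest uncorrected fold change of the 9. After the corrections for GC content, TPX2 had the largest. The CPM of PLK4 was 63.9 and 41.7 in DMSO 1 and 2 and 11 and 16.6 in Rib_CA 1 and 2. Both Rib_CA values lay below the lower DMSO value, although the DMSO replicates were themselves well apart. The log2 fold change of PLK4 was -1.94 ± 0.36 (adjusted p = 0.033), and its counts, 430 to 2216, were the lowest to pass among the 9. NEK2, which dissolves the link between centrosomes, had 89.1 and 66.1 CPM in DMSO and 22.5 and 35.6 in Rib_CA. The groups of NEK2 did not overlap, and its log2 fold change of -1.42 ± 0.34 missed the threshold narrowly (adjusted p = 0.0543).

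MASTL, the Greatwall kinase, lay at 102 and 86.8 CPM in DMSO and at 44.2 and 52.4 in Rib_CA. The groups were apart and the log2 fold change, -0.96 ± 0.26, did not pass (adjusted p = 0.0742). The exons of MASTL share 443 bases (12.2% of its transcript) with YME1L1 on the opposite strand, and the use of strand in counting is not given, so reads in that stretch cannot be assigned to either gene. The log2 fold change of YME1L1 was -0.35 ± 0.3 (adjusted p = 0.487).

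PLK1, the Polo kinase of mitotic entry and exit, had 168 and 213 CPM in DMSO and 164 and 97.8 in Rib_CA. Rib_CA 1 was within reach of DMSO 1 while Rib_CA 2 was far lower, and the log2 fold change of -0.54 ± 0.33 did not pass (adjusted p = 0.329). PBK, a kinase of mitotic cells also called TOPK, had 49.9 and 28.4 CPM in DMSO and 15.1 and 27.9 in Rib_CA. Rib_CA 2 and DMSO 2 were almost equal for PBK, and its log2 fold change was -0.86 ± 0.42 (adjusted p = 0.231).

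AURKB, the kinase of the chromosomal passenger complex, had 57.5 and 68.7 CPM in DMSO and 63.7 and 47.2 in Rib_CA. MELK, a kinase whose transcript is abundant in dividing cells, had 139 and 112 CPM in DMSO and 84.5 and 130 in Rib_CA. In both genes a Rib_CA library lay between or beside the DMSO libraries. The log2 fold change was -0.19 ± 0.28 for AURKB (adjusted p = 0.713) and -0.22 ± 0.31 for MELK (adjusted p = 0.681), and these p-values do not show that the levels were equal. With libraries scaled by total counts, AURKB turned to 0.01, a scaling that moved the median of all genes by 0.20.

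**Figure D2:**
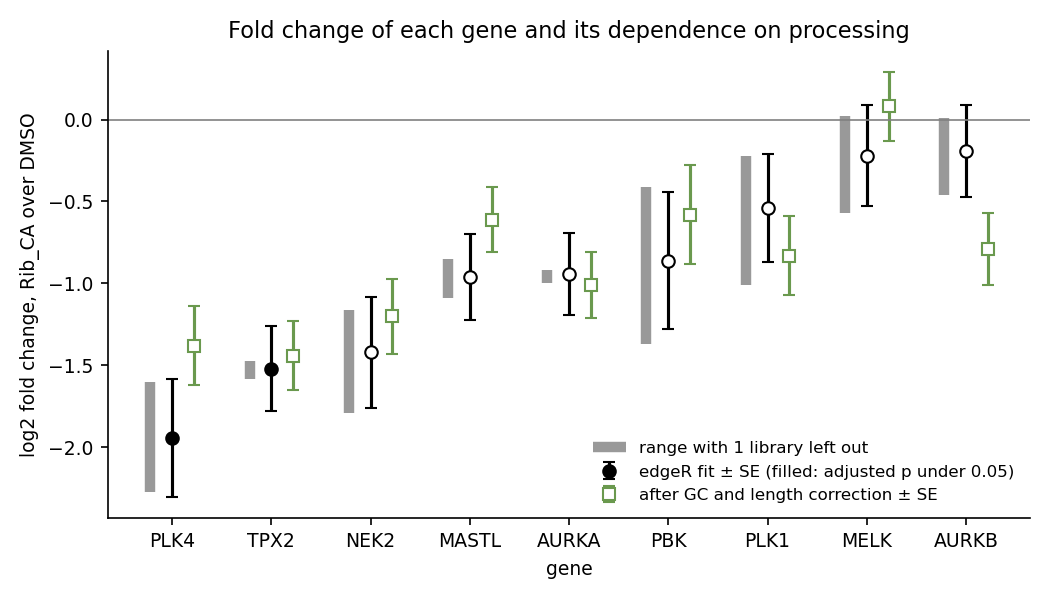
Log2 fold change of Rib_CA over DMSO for the 9 genes as fitted, with bars for the SE and filled points where it passed. Squares give the value after correction for transcript GC content and length, and grey bars the range with 1 library left out. PLK4, NEK2 and TPX2 lie lowest as fitted, and AURKB and MELK lie nearest 0.

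The calls rested on few libraries. Without DMSO 1 neither gene passed (PLK4 adjusted p = 0.127, TPX2 adjusted p = 0.134), and without DMSO 2 only PLK4 did, with TPX2 at an adjusted p of 0.135. Without Rib_CA 1 the log2 fold change was -1.71 for PLK4 and -1.58 for TPX2. Without Rib_CA 2 it was -2.27 for PLK4 and -1.51 for TPX2. The fold change ranged from 3.04 to 4.82 for PLK4 and from 2.77 to 3.0 for TPX2 over these fits. NEK2 passed in several other settings, among them DESeq2's size factors and the fits with no filter on low counts. PLK4 lost its call with total counts alone, at a log2 fold change of -1.74.

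The spread between replicates followed the base composition of the transcripts. The longest transcripts of PLK4, PBK, MELK, NEK2 and MASTL hold 38.4 to 43.1% GC, those of AURKA and TPX2 46.6 and 46.8%, and those of AURKB and PLK1 55.6 and 57.1%. The GC-poor genes were lower in DMSO 2 than in DMSO 1, with ratios of 0.569 for PBK and 0.652 for PLK4, and the GC-rich AURKB and PLK1 were higher, at 1.19 and 1.27. Between the Rib_CA libraries the order was turned around: PBK had a ratio of Rib_CA 2 to Rib_CA 1 of 1.84 and PLK4 of 1.51, and AURKB had 0.742 and PLK1 0.598. AURKA and TPX2, of middling GC, had ratios of 0.994 and 1.08 in DMSO and 1.09 and 0.978 in Rib_CA.

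As a description over the 9 genes, which share the same libraries, the log2 ratio followed GC content with Pearson's r of 0.91 in DMSO (Spearman's rho 0.97) and -0.96 in Rib_CA (rho -0.88). Over 13651 genes the same relations were weaker, with r of 0.21 and -0.33. The log2 fold change followed GC content with r of 0.54 over the 9 genes (rho 0.38) and 0.43 over all genes.

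**Figure D3:**
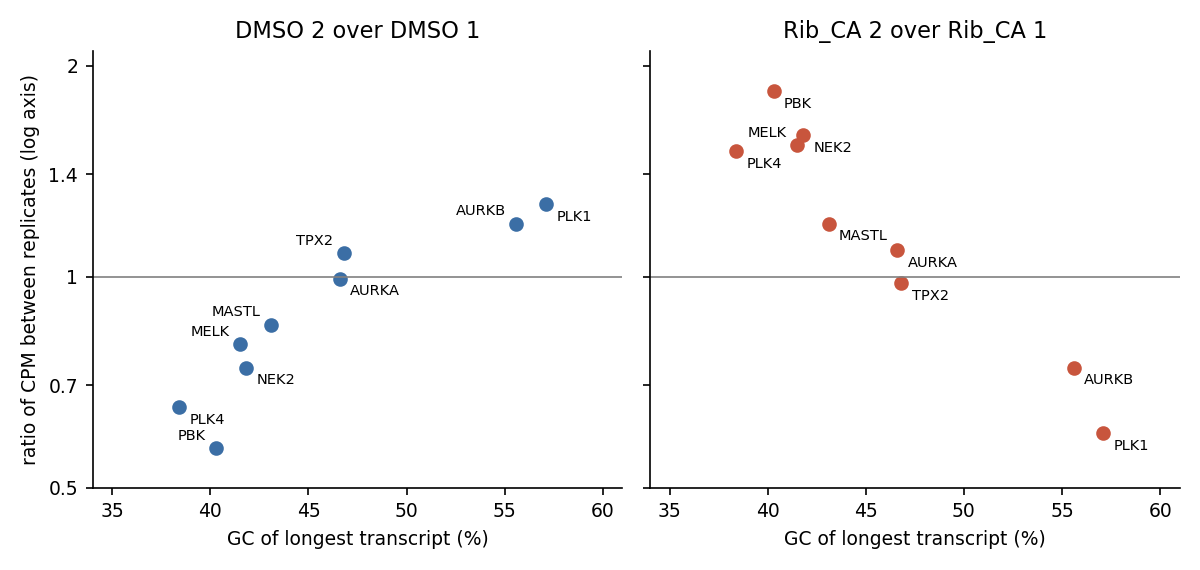
Ratio of CPM between the replicates of a group (log axis) against GC content of the longest transcript for the 9 genes, DMSO on the left and Rib_CA on the right. Ratios rise with GC content in DMSO, from 0.569 for PBK to 1.27 for PLK1, and fall in Rib_CA, from 1.84 to 0.598.

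After each library was corrected for GC content and transcript length, TPX2 had a log2 fold change of -1.44 ± 0.21 and AURKA of -1.01 ± 0.2, close to the uncorrected values. PLK4 went from -1.94 to -1.38 ± 0.24, which is 2.61-fold lower, and AURKB went from -0.19 to -0.79 ± 0.22, which is 1.73-fold lower. MELK turned to 0.08 ± 0.21. The correction ended every call: no gene of the table passed in edgeR, where 3402 genes lay at an unadjusted p under 0.05 (3879 without correction). TPX2 and PLK4 both had an adjusted p of 0.0798. The correction also takes away any treatment difference that runs along GC content or length.

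Levels were compared between genes per kilobase of the longest transcript. In DMSO the CPM per kilobase was 189 ± 9.71 (SD, n = 2) for TPX2, 105 ± 0.473 for AURKA, 50.5 ± 7.82 for MELK, 50.3 ± 6.27 for AURKB and 46.0 ± 7.75 for PLK1. It was 36.4 ± 7.63 for NEK2, 26.0 ± 2.9 for MASTL, 18.5 ± 7.18 for PBK and 13.7 ± 4.09 for PLK4. The libraries of TPX2 and AURKA stood apart from their neighbours in this order, while MELK and AURKB, AURKB and PLK1, PLK1 and NEK2, and PBK and PLK4 overlapped. In Rib_CA TPX2 remained highest at 65.7 ± 1.03 and AURKA next at 54.8 ± 3.26, and PLK4 remained lowest at 3.59 ± 1.03 CPM per kilobase. With lengths from the union of exons AURKB dropped to the fifth place in DMSO.

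The ratio of TPX2 to AURKA, per kilobase, relates an activator's transcript to that of its kinase. It was 1.73 and 1.87 in DMSO and 1.27 and 1.14 in Rib_CA, lower in both Rib_CA libraries, with means of 1.8 ± 0.101 and 1.2 ± 0.0905 (SD, n = 2). The ratio of AURKA to AURKB was 2.29 and 1.91 in DMSO and 1.03 and 1.51 in Rib_CA, also without overlap, with means of 2.1 ± 0.271 and 1.27 ± 0.341. These ratios are not corrected for GC content, and after correction for GC and length the log2 fold changes of AURKA and AURKB were -1.01 and -0.79, nearer each other than the uncorrected -0.94 and -0.19. For each ratio the exact two-sided permutation test gave p = 0.33, the smallest that 2 libraries against 2 allow. Only the values are therefore given.

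Lists of genes that work with the 9 held most of their lower genes among the partners of PLK4 (6 of 7) and of Aurora A (4 of 6). The lists, too, were chosen with earlier results of these data known. Of 70 listed genes 68 were tested, and 17 were lower and 0 higher, where 5.11% and 2.01% of all genes were. At an unadjusted p under 0.05, 26 were lower and 2 higher, against 14.7% and 13.7% of all genes, and DESeq2 called 23 lower and 2 higher, against 11.8% and 8.1%. The median log2 fold change of the lists was -0.45. Without DMSO 1, 2 of the 17 passed, without DMSO 2 10 passed, with total counts 9 passed, and after the GC corrections none did.

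Partners of PLK4 in centriole duplication had a list median of -1.95 on the log2 scale. Against 5.11% of all genes lower in edgeR, 6 of the 7 fell. They were CEP152, the scaffold that brings PLK4 to the centriole (5.19-fold lower, adjusted p = 0.0293), SASS6 of the cartwheel (4.08-fold), CCP110 of the centriole cap (4.03-fold), CENPJ (3.86-fold), STIL, a PLK4 substrate (3.32-fold), and CEP63 (2.84-fold). STIL was at 82.0 and 78.2 CPM in DMSO and at 28.9 and 19.3 in Rib_CA, and SASS6 at 55.2 and 45.2 against 10.2 and 14.4. In all 7 genes of the list both Rib_CA libraries were below both DMSO libraries, against 28.4% of all genes. For the 6 called genes this largely follows from the call. The log2 fold change of CEP135, -1.0, did not pass (adjusted p = 0.0846). After correction for GC and length the list median was -1.35, with CEP152 3.26-fold and CCP110 2.55-fold lower and CEP135 at a log2 fold change of -0.26. None of the 6 passed without DMSO 1.

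Among 6 activators and centrosome partners of Aurora A, 4 fell, where 5.11% of all genes were lower in edgeR. The list median was -1.58. HMMR, a spindle protein that binds TPX2, was 3.88-fold lower (adjusted p = 0.0286), CEP192, a centrosome scaffold for Aurora A and PLK1, 3.63-fold (adjusted p = 0.0293), NEDD1, which brings gamma-tubulin to the spindle, 3.04-fold, and BORA, the cofactor by which Aurora A activates PLK1, 2.94-fold. HMMR stood at 18.9 and 18.7 CPM in DMSO and at 4.67 and 5.0 in Rib_CA. TACC3 and AJUBA had log2 fold changes of -0.15 and -0.02, and both turned above 0 with total counts alone, at 0.04 and 0.2. Without DMSO 1 none of the 4 passed, and without DMSO 2, 2 genes of the list did. After correction for GC and length the list median was -1.04, with CEP192 2.15-fold and NEDD1 1.99-fold lower.

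In the chromosomal passenger complex and its recruiters 2 of 6 fell, where 5.11% of all genes were lower in edgeR. Both are shugoshins, which protect centromeric cohesion: SGO2 fell by 5.87-fold (3.85-fold after correction for GC and length) and SGO1 by 3.04-fold. In this list 1 gene passed without DMSO 1, without DMSO 2 or with total counts. INCENP, the scaffold of Aurora B, lay at 161 and 180 CPM in DMSO and at 92.9 and 60.3 in Rib_CA (log2 fold change -1.16, adjusted p = 0.0674). BIRC5 (survivin) overlapped between groups, at 86.7 and 37.3 against 90.3 and 50 CPM. Its log2 fold change of 0.18 turned to -0.14 after correction for GC and length. CDCA8 (borealin) had -0.24, near the value of AURKB.

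Of 12 other mitotic and G2 kinases 3 fell, where 5.11% of all genes were lower in edgeR. All 3 act in the spindle checkpoint: TTK (MPS1) was 5.24-fold lower (adjusted p = 0.0285), BUB1B (BubR1) 4.04-fold and BUB1 3.36-fold. Without DMSO 1, 1 gene of this list passed. TTK went from 74.6 and 62.4 CPM to 13.9 and 12.2. CIT, the citron kinase of cytokinesis, did not pass at a log2 fold change of -1.02 (adjusted p = 0.0662). CDK1, which with cyclin B starts mitosis, had 107 and 88.5 CPM in DMSO and 29.8 and 95.7 in Rib_CA, so the Rib_CA replicates differed more than the groups.

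The lists around MASTL and NEK2 held no gene that passed, where 5.11% of all genes were lower and 2.01% higher. Lists this short would hold few called genes at those shares. At an unadjusted p under 0.05, 14.7% of all genes were lower and 13.7% higher, and by DESeq2 11.8% and 8.1%. Of 8 Greatwall substrates and PP2A-B55 subunits 0 passed in edgeR, with 2 at an unadjusted p under 0.05 and 0 called by DESeq2. These 2 were PPP2CA and PPP2R1B, with log2 fold changes of -0.72 and -0.74, or -0.19 and -0.23 after correction for GC and length. ENSA and ARPP19, the Greatwall substrates, had log2 fold changes of 0.33 and -0.52, and ARPP19 turned to 0.09 after correction. Of 4 tested genes of the centrosome linker on which NEK2 acts, 0 passed, with 1 at an unadjusted p under 0.05 and 1 called by DESeq2. Its linker protein CEP250 was at 208 and 190 CPM in DMSO and at 106 and 118 in Rib_CA (log2 fold change -0.83, adjusted p = 0.0927).

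Among 12 transcription regulators of G2/M genes 2 fell, LIN54, the subunit that binds CHR elements (2.57-fold lower, adjusted p = 0.0451), and RBL1, the p107 pocket protein (2.69-fold, adjusted p = 0.0338). Neither passed without DMSO 1, without DMSO 2 or with total counts. After correction for GC and length LIN54 was 1.61-fold lower (adjusted p = 0.256) and RBL1 1.67-fold (adjusted p = 0.201). LIN37 lay in the opposite direction at a log2 fold change of 1.44 (adjusted p = 0.0568), or 0.80 after correction. Of 7 genes of the ubiquitin machinery acting on mitotic kinases 0 passed in edgeR, with 1 at an unadjusted p under 0.05 and 1 called by DESeq2. FBXO5 (EMI1) there had -0.95 (adjusted p = 0.0897). Over all genes, 5.11% were lower and 2.01% higher in edgeR. At an unadjusted p under 0.05 the shares were 14.7% and 13.7%, and by DESeq2 11.8% and 8.1%.

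Of 3 tested paralogs of the Aurora and Polo kinases, 0 passed in edgeR, with 1 at an unadjusted p under 0.05 and 1 called by DESeq2. PLK3, a stress-induced Polo kinase, was at 12.2 and 10.2 CPM in DMSO and at 39.0 and 21.5 in Rib_CA (log2 fold change 1.43, adjusted p = 0.0663). Both Rib_CA values of PLK3 were above both DMSO values. AURKC was near the lower limit, at 0.296 and 0.774 CPM on average, and PLK2 had a log2 fold change of -0.41. Of the 3 CDC25 phosphatase genes 0 passed, with 0 at an unadjusted p under 0.05 and 0 called by DESeq2. Over all genes, 5.11% were lower and 2.01% higher in edgeR. At an unadjusted p under 0.05 the shares were 14.7% and 13.7%, and by DESeq2 11.8% and 8.1%. Lists of 3 genes would hold few called genes at those shares.

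**Figure D4:**
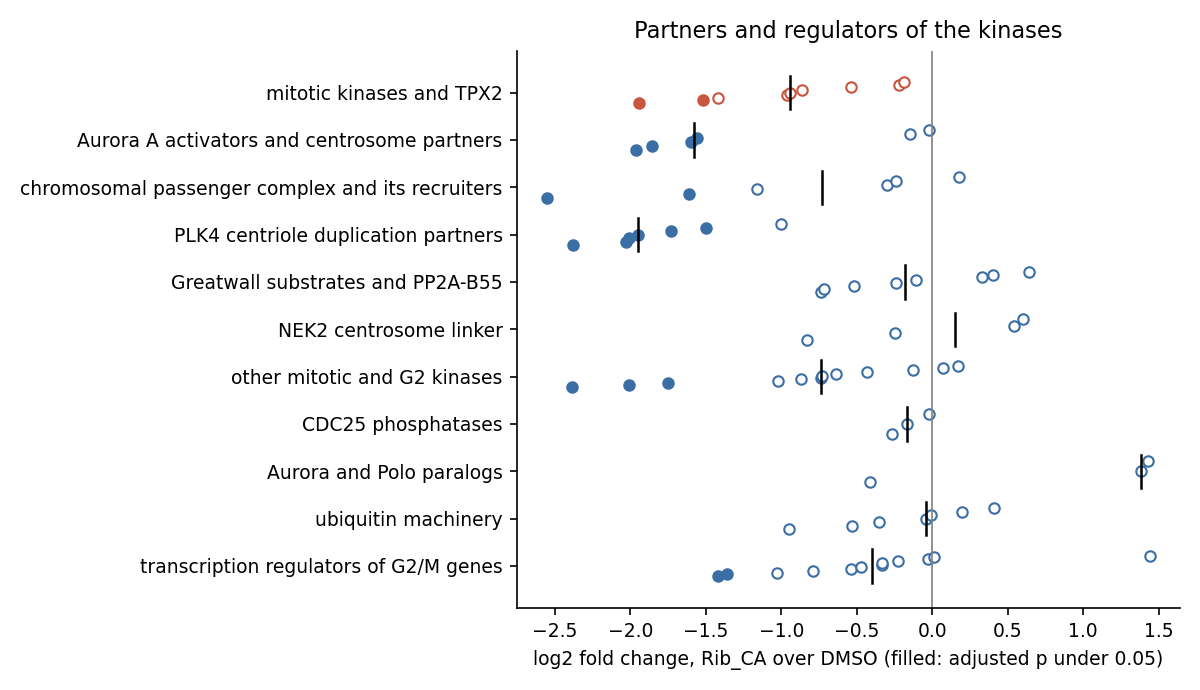
Log2 fold change of Rib_CA over DMSO for each tested gene of the pathway lists and for the 9 genes, with filled points for genes that passed, open points for the others and a bar at each list's median. The PLK4 partners lie lowest with a median of -1.95. The paralogs, 3 tested genes of which 0 passed, have a median of 1.38, which is the value of AURKC, a gene near the lower limit.

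The profile of each gene over the 4 libraries was compared with those of 13658 other tested genes, by the Euclidean distance of log2 CPM centred on its own mean. The nearest to TPX2 was CAPRIN1 at a distance of 0.05, to AURKA LRRC8C at 0.06, to PLK4 HLTF at 0.078, to NEK2 CEP70 at 0.057 and to MASTL G3BP2 at 0.023. The nearest to MELK was CCNB1, the cyclin B1 gene, at 0.029, to PLK1 DIDO1 at 0.076 and to PBK FAM13A at 0.071. The nearest to AURKB was the olfactory receptor gene OR2AG2 at 0.027, a gene with only 0.395 to 0.607 CPM. Among the 9 themselves AURKA and MASTL were closest at 0.18, followed by AURKB and PLK1 at 0.45 and PLK4 and NEK2 at 0.51, and AURKB and PLK4 were farthest apart at 1.98. With 4 libraries such distances also carry the differences between replicates.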

How the data were processed

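The authors deposited raw counts, whole numbers per Ensembl gene that were not normalised, for 2 DMSO and 2 Rib_CA libraries made with an mRNA kit, per the labels' protocols. The submitters' processing notes name the builds GRCm38 and mm10, of mouse, while the row names are human Ensembl IDs, so which build was used is unclear. The aligner, the counter and its strand setting were not given in the sources used here. Even numbers made up 67.7 to 70.7% of the values between 1 and 10. The replicates of a group differed by 256.6 (DMSO) and 265.3 (Rib_CA) times the degrees of freedom in a chi-square test over genes. No column was left unused.

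Testing used edgeR 4.0.16 under R 4.3.3 (filterByExpr with a minimum count of 10 and total of 15, TMM scaling, robust quasi-likelihood fit, 2 residual degrees of freedom). This kept 13667 genes, and Benjamini-Hochberg adjustment ran over all of them (threshold 0.05). The fit's biological coefficient of variation was 0.314. The fit was also run on simulated counts, drawn with less spread between replicates than these data have. That run therefore does not show how the fit performs here. Each SE is the absolute log2 fold change over the square root of F, and CPM are given as mean ± SD. Gene limits, transcript lengths and GC contents came from GENCODE 29 (GRCh38) and promoters from RefSeq. The planned description of protein features was not run.

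The alternatives were other scalings, other filters, DESeq2 1.42.0, limma-voom 3.58.1, a block for the replicate number, leaving out each library in turn, no mitochondrially encoded genes, offsets from smooths (mgcv 1.9.3, with 6 basis functions) over GC content alone or with length, and, chosen after seeing the data, a crossed pairing. Where leaving out a library left a group with 1, that library is assumed to vary like the other group. The 9 genes and the pathway lists were chosen with earlier results of these data known. By plan the named genes were the 9, every called gene of a list and up to 3 others with the smallest p. The nearest profile to each of the 9 and the nearest gene on each side were also planned. Not every gene under this rule is named in the text. Genes named beyond this rule (ENSA, ARPP19, BIRC5 and CDK1 among them) were chosen after their values were seen. Plots used Python 3.11.15 and matplotlib 3.10.9.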

Additional observations from a re-analysis of the deposited data

How the results depend on the processing

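Counts of lower genes among the 9 (2 as reported) were 1 with total counts alone, 5 with DESeq2, 5 with the crossed pairing, 0 to 6 with a library left out, and 0 with the GC correction and 0 with GC and length. Over all genes, 275 were higher and 699 lower. The count higher was 448 with no filter, 418 with the 5 CPM filter, 724 crossed, 1043 with DESeq2, 36 to 1234 with a library left out and 0 after either GC correction. The count lower was 328 with total counts, 1267 crossed, 1514 with DESeq2, 137 to 1634 with a library left out and 0 after either GC correction. At an unadjusted p under 0.05 there were 3654 genes after the GC correction. The cause was not tested.

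NEK2 passed at -1.44 with DESeq2's size factors, with DESeq2, with the replicate block and crossed, at -1.42 with no filter, -1.41 with the 5 CPM filter and -1.4 without mitochondrially encoded genes. With a library left out the log2 fold changes ranged from -1.79 to -1.16 for NEK2, -1.0 to -0.92 for AURKA, -1.09 to -0.85 for MASTL, -1.01 to -0.22 for PLK1, -1.37 to -0.41 for PBK, -2.27 to -1.60 for PLK4, -1.58 to -1.47 for TPX2, -0.46 to 0.01 for AURKB and -0.57 to 0.02 for MELK. AURKA passed at -0.94 crossed and -0.96 with DESeq2, and MASTL at -0.97 and -0.98. PLK4 did not pass at -1.74 with total counts, -1.31 with GC and -1.38 with GC and length, nor TPX2 at -1.42 and -1.44. With total counts AURKB was 0.01, TACC3 0.04, AJUBA 0.2 and CDC25B 0.03. MELK was 0.27 with GC and 0.08 with GC and length, FZR1 -0.11 with GC, ARPP19 0.07 and 0.09, and BIRC5 -0.07 and -0.14. AJUBA was 0.04 with the replicate block and 0.04 with limma-voom. With a library left out TACC3 ranged from -0.43 to 0.05, AJUBA from -0.43 to 0.54, CDC25C from -0.74 to 0.04 and BIRC5 from -0.34 to 0.9.

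After both GC corrections every list had 0 genes. Aurora A partners had 1 with total counts and 0 to 4 with a library left out, the passenger complex 1 and 1 to 3, PLK4 partners 0 to 7, other kinases 1 to 8, Greatwall genes 0 to 3, the linker 0 to 1 and 1 with DESeq2. Paralogs had 1 with no filter, crossed and with DESeq2 and 0 to 1 with a library left out, and ubiquitin machinery 1 crossed and with DESeq2 and 0 to 1. G2/M regulators had 0 with total counts, 4 crossed, 4 with DESeq2, 1 with limma-voom and 0 to 5 with a library left out. With exonic union lengths the ratio of TPX2 to AURKA was 2.35 in DMSO and 1.57 in Rib_CA, and that of AURKA to AURKB 2.88 and 1.75.

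With the replicate block 260 genes were higher, 687 lower and 3 of the 9 lower (NEK2 added). The numbers share no stated origin, and same-numbered libraries deviated with a correlation of -0.186, so they are not taken as paired. With 34774542 counts or more per library and at least 430 for each of the 9, counting error is small beside the biological coefficient of variation of 0.314.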

Other observations

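Genes beside the 9 on the chromosome were also looked up (GRCh38, GENCODE 29). CSTF1, a polyadenylation factor gene that starts 34 bases from AURKA on the opposite strand, lay at 90.8 and 85.5 CPM in DMSO and at 46.3 and 39.8 in Rib_CA. Its log2 fold change of -1.03 ± 0.26 (adjusted p = 0.0605) was near that of AURKA, -0.94, and neither passed. After correction for GC and length CSTF1 had -0.63 and AURKA -1.01. FAM210B, on the other side of AURKA, had -0.01. Beside PLK4, the heat shock gene HSPA4L at 40128 bases was 4.03-fold lower (adjusted p = 0.0285), and beside MASTL, ANKRD26 at 54326 bases was 6.11-fold lower (adjusted p = 0.0285). ESCO2, a cohesin acetyltransferase gene whose limits overlap those of PBK with no shared exonic base, was 3.0-fold lower (adjusted p = 0.0326). After correction for GC and length none of these 3 passed, with HSPA4L 1.96-fold (adjusted p = 0.0931), ANKRD26 3.37-fold (adjusted p = 0.0931) and ESCO2 1.99-fold lower (adjusted p = 0.122). BCL2L1, 15282 bases from TPX2, had a log2 fold change of 0.18 and DCTN5, 201 bases from PLK1, had 0.14. MFSD8, on the other side of PLK4 at 18537 bases, had -0.21. ACBD5, on the other side of MASTL at 8290 bases, had 0.2. No nearest neighbour but HSPA4L and ANKRD26 passed in edgeR, where 5.11% of all genes were lower and 2.01% higher.

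Over the tested genes with a RefSeq promoter window, 109 of 1229 with a CHR word were lower in edgeR (8.87%), against 481 of 9674 without one (4.97%). For CCAAT the shares were 6.14% with and 4.99% without. These shares were not tested, and their calls are not corrected for GC content. The log2 fold change followed transcript GC content over all genes with Pearson's r of 0.43. After the GC correction no gene passed. Whether the shares follow GC content was not tested.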
